A study of Saccharomyces cerevisiae with 36 samples.

Results

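The comparison described here followed strain 11, the non-dominant of a pair of Saccharomyces cerevisiae wine strains, through the later hours of a mixed fermentation with strain 12. Its members were the 3 libraries of strain 11 cells sorted from mixed culture at 30 h and the 3 sorted from mixed culture at 20 h, chosen by their labels, which makes 6 of the 36 libraries of the series. Both strains started at equal density in Nebbiolo grape must at 25 °C, each carried GFP or eSapphire behind a GPD promoter, with the markers exchanged in some fermentations, and their cells were separated by flow cytometry. The small amounts of RNA were amplified and sequenced on a SOLiD instrument. All 6 libraries thus share the strain, the must, the presence of strain 12, the sort and the amplification. By their labels they differ in the time of sampling and the replicate. The study placed 30 h at the start of the stationary phase and 20 h in the middle of exponential growth. It chose 20 h as the point where strain 12 began to overtake strain 11, and 30 h as one where strain 11 was hard to detect. The share of strain 12 may therefore differ between the times, and its part was not tested. The labels do not name the fluorescent protein of a library, so its part in any difference was not tested.

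When yeast runs out of a nutrient in must, growth slows and the cell makes fewer ribosomes, stores trehalose and glycogen and strengthens its wall. The transcription factors Msn2 and Msn4 switch on the general stress genes, while Hsf1 controls the heat shock chaperones. The comparison asks which of these programmes still moved in strain 11 between the middle of growth and the start of the stationary phase.

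No gene passed the test between 30 and 20 h. With edgeR's quasi-likelihood test and Benjamini-Hochberg adjustment, 0 of 3670 genes (0.0%) had an adjusted p of at most 0.05 and the smallest adjusted p was 0.118. At an unadjusted p under 0.05 there were 231 genes (6.29%), 129 higher (3.51%) and 102 lower (2.78%) at 30 h. DESeq2, over a larger set of 6400 genes, called 0 with 266 at an unadjusted p under 0.05. Most differences were small, the middle of the distribution lying at a log2 fold change of 0.01 with 5% of the genes below -0.95 and 5% above 1.10. In 224 genes (6.1%) all 30 h libraries lay above all 20 h libraries and in 258 (7.03%) below, together 13.1% of the genes tested. Genes of this comparison are described by their values, and none is a called change.

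**Figure D1:**
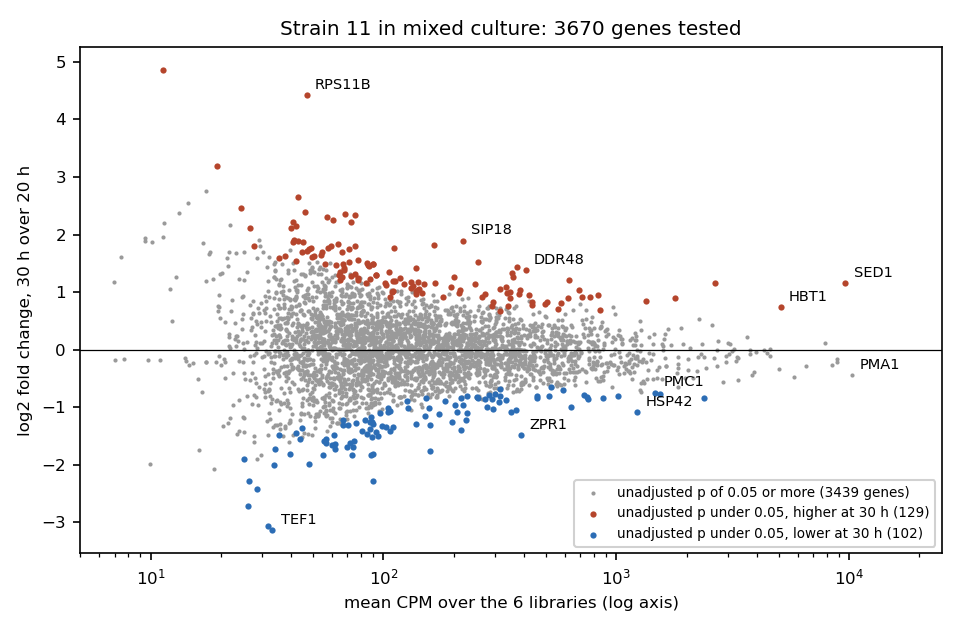
Log2 fold change of each of the 3670 genes tested, 30 h over 20 h, against its mean CPM (reads scaled to a common library size) over the 6 libraries on a log axis. Red and blue points are the 129 higher and 102 lower genes with an unadjusted p under 0.05, and none has an adjusted p of at most 0.05. The spread widens towards genes with few reads.

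The depth set what could be seen. The libraries held 86139, 128394 and 98547 reads on genes at 30 h, and 88134, 67295 and 120796 at 20 h. The median standard error of a log2 fold change was 0.51, and 674 of the 3670 genes (18.4%) had a 95% interval that lay within -1 and 1. On simulated counts for this comparison, run on 3551 genes, the test found 8.96% of genes changed by 1 on the log2 scale, 38.8% of those changed by 1.5 and 60.6% of those changed by 2. A change of 2-fold in an average gene was thus mostly not detectable at this depth.

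The 3 libraries of 30 h were less alike than those of 20 h. Over 1167 genes with a mean of at least 200 CPM, log2 CPM (after adding 20 CPM) correlated by 0.77, 0.87 and 0.87 between pairs of 30 h libraries, and by 0.85, 0.90 and 0.87 between pairs of 20 h libraries, which describes these libraries and is no test. Pairs of a 30 h and a 20 h library correlated by 0.80 to 0.89, so pairs of the same time were not set apart from pairs across the times. The lowest value of all pairs was that of replicates 1 and 2 of 30 h. SSU1, a sulfite exporter, and YHB1, a flavohemoglobin that detoxifies nitric oxide, are more highly expressed in strain 12 and served as markers of it, having been found from these data. SSU1 stood at 301, 53.9 and 168 CPM in the 30 h libraries, against 46.3, 178 and 122 CPM in the 20 h libraries. The summed CPM of both markers was highest in replicate 1 at 30 h (497, against 169 and 247 in the others) and in replicate 2 at 20 h (356, against 162.0 and 171). Strain 12 sorted from mixed culture had sums between 1105 and 1489.7 at 30 h and between 862 and 1376 at 20 h, while strain 11 from single culture had sums of at most 123 at 30 h and at most 103 at 20 h. The sums in all 6 libraries therefore lay above those of strain 11 alone at the same time and below those of strain 12. Whether these reads come from strain 12 cells or RNA, or from a response of strain 11, was not tested. The markers of strain 11 were also found from these data, and YNL284C-B took the most of their reads. Their summed CPM was 23.1, 146 and 69.1 at 30 h, against 69.4, 193 and 16.2 at 20 h, from at most 19 reads a library. Strain 11 from single culture had a mean sum of these markers of 238 at 30 h and 241 at 20 h. All 6 libraries lay below the mean of their time, most of all replicate 1 at 30 h and replicate 3 at 20 h. The cause of these lower sums was not tested. Leaving out both libraries with the highest SSU1 and YHB1 sums gave 0 called genes with edgeR and 245 of 3971 at an unadjusted p under 0.05.

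**Figure D2:**
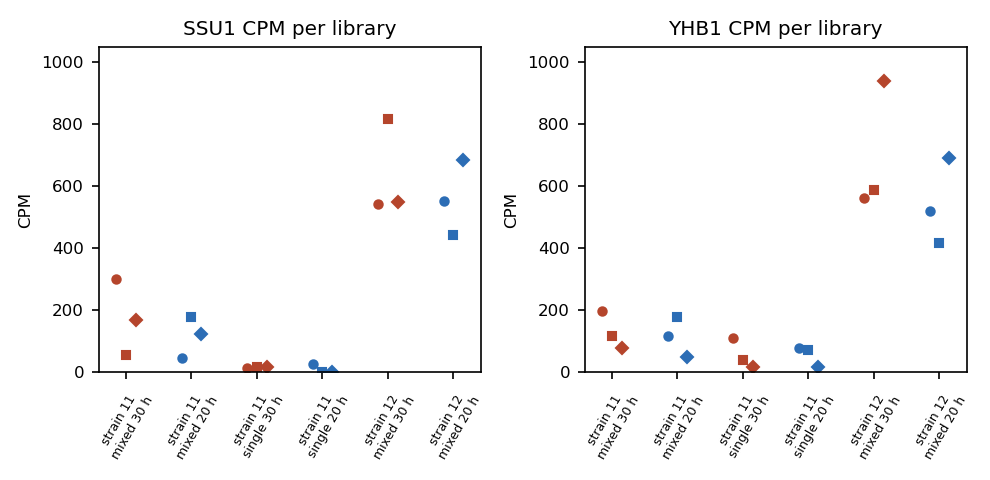
CPM of SSU1 and YHB1 in each library (circle, square and diamond are replicates 1, 2 and 3) of strain 11 in mixed culture, strain 11 in single culture and strain 12 in mixed culture, 30 h in red and 20 h in blue. In strain 11 from mixed culture, SSU1 reached 301 CPM in 1 library of 30 h and 178 CPM in 1 library of 20 h.

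The clearest difference among the genes with many reads was that of SED1, which encodes a major mannoprotein anchored in the cell wall of stationary cells (chromosome IV, 600791 to 601807, sacCer2). SED1 had 11447, 17505 and 10846 CPM at 30 h, against 4779, 6691 and 6409.6 CPM at 20 h. Every library of 30 h lay above every library of 20 h. The means were 13266 ± 3683 CPM and 5960 ± 1032 CPM (SD, n = 3 each), a log2 fold change of 1.15 (SE 0.35, 95% interval 0.44 to 1.87, adjusted p = 0.441 in edgeR's quasi-likelihood test). At 12 h the same strain in mixed culture had 3693, 5865 and 5752 CPM. In single culture SED1 had 25917, 13484 and 15895 CPM at 30 h, against 5553, 10479 and 9091 CPM at 20 h, a log2 fold change of 1.14 (adjusted p = 0.106 by edgeR). A fit of the 6 libraries alone did call SED1 in mixed culture, with an adjusted p of 0.0252 by edgeR over 1973 genes. By reads, SED1 was second of all genes over the 6 libraries.

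PMA1, the plasma membrane proton pump, ranked first, with 9609, 6433 and 9997 CPM at 30 h, against 13688, 10874 and 10845 CPM at 20 h. Its 30 h libraries all lay below its 20 h libraries, with a log2 fold change of -0.44 (95% interval -1.06 to 0.17, adjusted p = 0.853 by edgeR). PUT1, which starts proline breakdown, had a log2 fold change of -0.16 (95% interval -0.64 to 0.33), CDC19, the main pyruvate kinase, -0.22 (-0.75 to 0.31), and FAS1, a fatty acid synthase subunit, -0.28 (-0.76 to 0.20). For PUT1, CDC19 and FAS1 these 95% intervals did not reach a 2-fold difference. CDC19 overlaps YAL037C-B, and reads of the pair cannot be told apart. HBT1, needed for the shape of mating cells, had 9794, 4363 and 4830.3 CPM at 30 h, against 3922, 4569 and 2908 CPM at 20 h (log2 0.74, adjusted p = 0.771). Its groups overlapped, and without replicate 1 of 30 h the difference was 0.27. PMA2, a close copy of PMA1, had a log2 fold change of 1.17, and of 0.36 without that library, with 6799, 1524 and 2716 CPM at 30 h, against 1643, 1765 and 1495 CPM at 20 h. Reads of PMA1 and PMA2 may be split between these similar copies.

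The list of heat shock proteins, chaperones and general stress genes held the largest share of low p-values among the larger lists. Of 55 genes tested, 14 (25.5%) had an unadjusted p under 0.05, against 6.29% of all genes, 6 higher and 8 lower at 30 h, with a list median of 0.00 on the log2 scale beside 0.01 over all genes. None of the 55 was called. In 6 of the 55 all 30 h libraries lay above all 20 h libraries and in 9 below, beside 6.1% and 7.03% of all genes. Genes named here and below for a low p were picked on these same values, so a lack of overlap in them is no further evidence. With single libraries left out the number at an unadjusted p under 0.05 lay between 9 (without replicate 2 of 20 h) and 14, and it was 7 without both marker-rich libraries.

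The 8 lower genes were mainly chaperones. HSP42, a small heat shock protein that gathers unfolded proteins (chromosome IV, 806619 to 807746, sacCer2), had 856, 631 and 869 CPM at 30 h, against 1585, 2210.5 and 1219 CPM at 20 h. The groups did not overlap, and the log2 fold change was -1.09 (SE 0.33, adjusted p = 0.406 by edgeR). HSP78, which disaggregates proteins in mitochondria, had 786, 500.1 and 612 CPM at 30 h, against 1007, 1113 and 1235 CPM at 20 h (log2 -0.83). HSP82, the inducible Hsp90, had 474, 616 and 524 CPM at 30 h, against 995, 1053 and 877 CPM at 20 h (log2 -0.85). AHA1, which stimulates the ATPase of Hsp90, had 150.3, 246 and 178 CPM at 30 h, against 428, 386 and 382 CPM at 20 h (log2 -1.03). In each of these genes all 30 h libraries lay below all 20 h libraries. The same held for SSA1 (log2 -0.81), SSB2 (-0.83), HSP30 (-0.77) and TFS1 (-0.87), which encode Hsp70 chaperones, a plasma membrane heat shock protein and an inhibitor of carboxypeptidase Y. SSA1 overlaps YAL004W. The adjusted p of the 8 genes lay between 0.406 and 0.771.

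HSP104, the disaggregase that clears heat-damaged proteins, had 3376, 3232 and 3072 CPM at 30 h, against 4767, 3798 and 4582 CPM at 20 h, also without overlap, and a log2 fold change of -0.44 (95% interval -0.99 to 0.10). CTT1, the cytosolic catalase and the list member with the most reads, had a log2 fold change of -0.01 (95% interval -0.57 to 0.55).

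The 6 higher genes included those of Msn2 and Msn4 themselves. MSN4 had 1434, 823 and 1057 CPM at 30 h, against 336, 697 and 666 CPM at 20 h (log2 0.96). MSN2 had 382, 616 and 375 CPM at 30 h, against 174, 208 and 341 CPM at 20 h (log2 0.90). XBP1, a repressor made in starved cells, had a log2 fold change of 0.91 and DDR2, a multistress response gene, one of 0.96. In all 4 the groups stood apart. DDR48, a stress protein induced by DNA damage (chromosome XIII, 608688 to 609980, sacCer2), had 382, 669 and 731 CPM at 30 h, against 219.8, 134 and 309 CPM at 20 h, a log2 fold change of 1.39 (SE 0.36, adjusted p = 0.307 by edgeR). It overlaps YMR173W-A on the same strand, so their reads cannot be told apart. SIP18, a hydrophilin that protects dried cells, had 624, 154 and 277 CPM at 30 h, against 127, 29.7 and 106 CPM at 20 h (log2 1.89, SE 0.56, adjusted p = 0.406). All 3 libraries at 12 h had 0 CPM of SIP18. Without replicate 1 of 30 h its log2 fold change was 1.19.

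**Figure D3:**
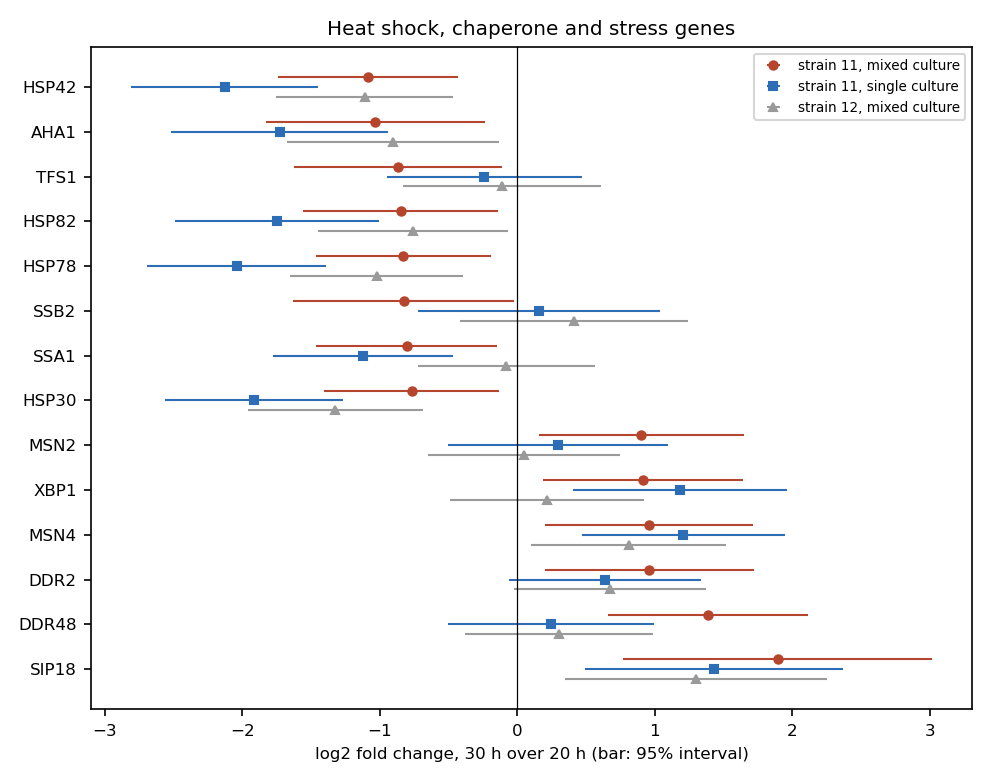
Log2 fold change, 30 h over 20 h, with its 95% interval for the 14 heat shock and stress genes with an unadjusted p under 0.05 in strain 11 from mixed culture (red circles), beside the same genes in strain 11 from single culture (blue squares) and strain 12 from mixed culture (grey triangles). HSP42 stands at -1.09 in mixed and -2.13 in single culture, and DDR48 at 1.39 and 0.25.

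The 12, 20 and 30 h levels put these values in sequence. HSP42 had 612, 866 and 542 CPM at 12 h, and its 20 h values lay above them (log2 1.31 for 20 over 12 h, adjusted p = 0.00706 by edgeR). The 30 h values of 856, 631 and 869 CPM overlapped those of 12 h. HSP78 had 594, 542 and 318 CPM at 12 h, below its 20 h values (log2 1.22, adjusted p = 0.0103). The 20 h libraries enter both comparisons, so the 2 differences are not independent of each other. In all, 212 of 3670 genes (5.78%) were called between 20 and 12 h, where the 12 h libraries were deeper (140239 to 454931 reads), and 0 between 30 and 20 h.

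In strain 11 grown alone, part of this list passed the test over the same hours. There 10 of the 55 genes were called, against 26 of 3670 genes (0.708%) in all, 7 higher and 19 lower, and the list median was -0.40. Those shares of all genes were 0.191% higher and 0.518% lower. HSP42 fell to 627, 614 and 604 CPM at 30 h in single culture, against 2466, 2351 and 3273 CPM at 20 h (log2 -2.13, adjusted p = 6.55e-05 by edgeR). HSP78 fell to 578, 645 and 571 CPM at 30 h, against 2918, 2189 and 2307 CPM at 20 h (log2 -2.04). The 30 h levels in single and mixed culture were close, whereas the 20 h levels in mixed culture were lower than in single culture. The test of the difference between the cultures' time changes called neither gene (by edgeR, unadjusted p = 0.0287 and adjusted p = 0.938 for HSP42, unadjusted p = 0.00929 and adjusted p = 0.871 for HSP78). Of the 26 genes called in single culture, 24 had the same sign in mixed culture and all 26 a smaller size, with medians of the 19 lower genes of -0.71 in mixed and -1.85 in single culture. These genes were chosen for their change in single culture, so a smaller size elsewhere is partly set by the choice. The difference between the cultures had an unadjusted p under 0.05 by edgeR for 15 of the 26, beside 5.12% of all genes. It was called for 0 of the 26, the smallest adjusted p being 0.417. The single-culture libraries by which these genes were chosen also enter this difference, so low p-values in it are partly set by the choice. BTN2, a chaperone that sorts misfolded proteins, had a log2 fold change of -0.71 in mixed and -3.27 in single culture (unadjusted p of the difference 0.00502, adjusted p = 0.871 by edgeR).

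Over all genes, the time change differed between mixed and single culture for 0 of 3670 genes (0.0%) by edgeR, with 188 (5.12%) at an unadjusted p under 0.05. Between strain 11 and strain 12 in mixed culture it also differed for 0 genes (0.0%), with 136 (3.71%) at an unadjusted p under 0.05. DESeq2 called 0 genes in each of these tests. In strain 12 from mixed culture 1 gene (0.0272%) was called between 30 and 20 h, and 12 by DESeq2, which adjusted over only 1189 genes there.

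The cytosolic ribosomal proteins lay on the higher side as a list. Of 137 genes, 98 were tested, and 73 of these (74.5%) had a log2 fold change above 0, against 51.2% of all genes. The list median was 0.35, against 0.01 over all genes, and 8 genes (8.16%) had an unadjusted p under 0.05, all higher, with 0 called. Across the alternatives the list median stayed between 0.28 and 0.61, and the number at an unadjusted p under 0.05 was 17 without replicate 1 of 20 h, 16 without replicate 1 of 30 h and 6 without replicate 2 of either time. Ribosomal protein genes took 3.37%, 2.72% and 3.58% of all reads in the 12 h libraries, 1.45%, 1.05% and 1.11% in the 20 h libraries, and 1.20%, 1.83% and 1.64% in the 30 h libraries. The shares of 30 h and 20 h overlapped through replicate 1 of each time, and both lay below those of 12 h. In single culture the list median was 0.05 and in strain 12 it was 0.23.

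RPS10A, of the small subunit, had 150.3, 331 and 286 CPM at 30 h, against 69.4, 89.0 and 65.0 CPM at 20 h, a log2 fold change of 1.82 (SE 0.49, adjusted p = 0.350 by edgeR). At 12 h it had 301, 253 and 358 CPM. RPL32, of the large subunit, had 254, 739 and 533 CPM at 30 h, against 208, 148 and 244 CPM at 20 h (log2 1.33). RPL27B had 162, 177 and 178 CPM at 30 h, against 11.6, 74.2 and 65.0 CPM at 20 h (log2 1.76), and RPS16A 393, 323 and 642 CPM at 30 h, against 219.8, 193 and 260.0 CPM at 20 h (log2 0.99). In these 4 genes no library of 30 h reached down to those of 20 h. That held for 11 of the 98 genes tested, with 2 separated the other way, beside 6.1% and 7.03% of all genes. RPL33B, RPL19A and RPL37A were the other members with an unadjusted p under 0.05, and their groups overlapped.

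RPS11B had the smallest p of the list, with 8, 17 and 5 reads at 30 h, against 0, 0 and 1 read at 20 h, a ratio of 26.6 with a 95% counting interval of 4.42 to 1084. Its copy RPS11A, to which the reads of the pair may be split, had 8, 7 and 4 reads at 30 h, against 6, 1 and 2 at 20 h. The summed CPM of the pair was 185, 185 and 88.9 at 30 h, against 69.4, 14.8 and 24.4 at 20 h. The other duplicated members carry the same doubt, and the summed CPM of RPS10A and RPS10B still stood apart, with 278, 531 and 524 at 30 h, against 208, 148 and 171 at 20 h. RPL3, the ribosomal protein gene with the most reads and with no copy, had 567, 716 and 524 CPM at 30 h, against 798, 608 and 544 CPM at 20 h (log2 -0.10).

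Ribosome biogenesis factors had 2 of 57 genes at an unadjusted p under 0.05 (3.51%) and a median of 0.06. The RNA polymerase I and III subunits had 1 of 13 (7.69%), beside 6.29% of all genes. UTP20, a processing factor of the small subunit and the biogenesis gene with the most reads, had a log2 fold change of -0.08, and RET1, a polymerase III subunit, one of -0.21.

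**Figure D4:**
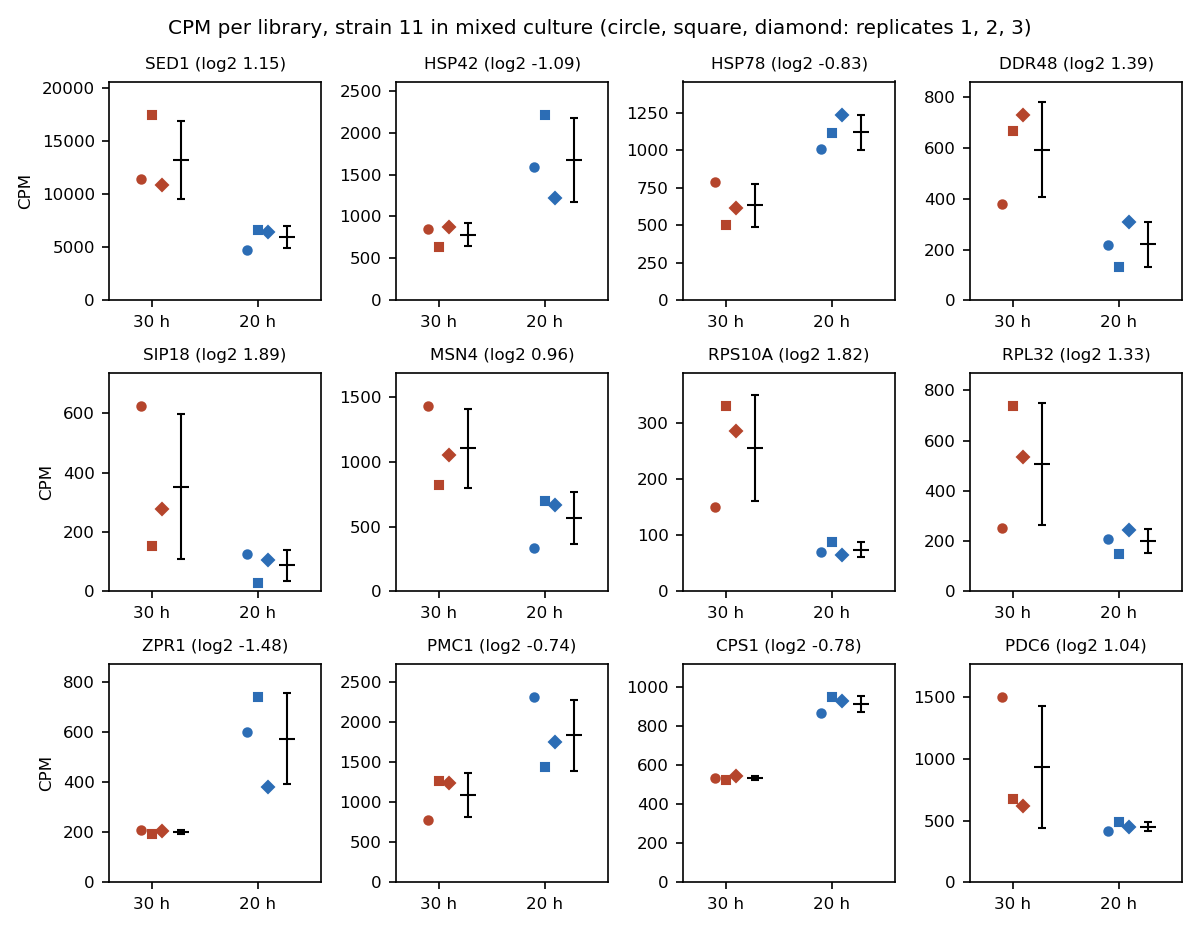
CPM in each library of 12 genes of strain 11 in mixed culture, 30 h in red left of 20 h in blue, with the mean and SD of each time in black. CPS1 runs from 523 to 543 at 30 h and from 868 to 949 at 20 h, and in MSN4, PDC6 and SIP18 the highest 30 h value is that of replicate 1.

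ZPR1, whose product helps fold the translation elongation factor eEF1A, shared the smallest adjusted p of the comparison with RPS11B (chromosome VII, 915246 to 916706, sacCer2). It had 208, 192 and 207 CPM at 30 h, against 602, 742 and 382 CPM at 20 h, a log2 fold change of -1.48 (SE 0.34, 95% interval -2.17 to -0.80, adjusted p = 0.118 by edgeR). At 12 h it had 141, 141 and 162 CPM. In single culture ZPR1 fell to 258, 192 and 277 CPM at 30 h, against 1046, 1220.2 and 1323 CPM at 20 h (adjusted p = 2.78e-05), and the difference between the cultures had an unadjusted p of 0.0884. TEF1, which encodes eEF1A itself, had 0, 1 and 1 read at 30 h, against 7, 3 and 7 reads at 20 h, a ratio of 20 over 30 h of 9.60 with a 95% counting interval of 2.28 to 85.6. Its identical copy TEF2 is listed at 0 in all 6 libraries, so TEF1 reads stand for an unknown part of the pair.

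Genes of glycolysis and alcoholic fermentation were mostly below 0 without large differences. Of 24 genes tested, 21 had a log2 fold change below 0 and 3 (12.5%) above, against 51.2% of all genes above 0. The median was -0.31, against -0.34 in single culture and 0.25 in strain 12. With single libraries left out, the number above 0 ran from 3 to 6. The median ran from -0.38 to -0.15, nearest 0 without replicate 1 of 20 h. At an unadjusted p under 0.05 there were 3 genes (12.5%), against 6.29% of all genes. PDC6, the minor pyruvate decarboxylase, had 1503, 677 and 622 CPM at 30 h, against 417, 489.6 and 447 CPM at 20 h (log2 1.04, adjusted p = 0.452 by edgeR), and 113, 120 and 55.5 CPM at 12 h. Its log2 fold change was 0.52 without replicate 1 of 30 h. HXK2, the main hexokinase in glucose, stood at log2 0.83, and ADH3, the mitochondrial alcohol dehydrogenase, at -1.39, with 219.7, 69.3 and 79.0 CPM at 30 h, against 347, 237 and 333 CPM at 20 h. HXT1, the low-affinity glucose transporter with the most reads of its family, was at -0.41, and 0 of 12 transporters and sensors had an unadjusted p under 0.05. TSL1, of the trehalose synthase complex, was at -0.33, with 1 of 20 trehalose and glycogen genes at an unadjusted p under 0.05. ATP1, a subunit of the ATP synthase, was at -0.21 among 49 respiratory genes with 0 at an unadjusted p under 0.05, and CIT2, the peroxisomal citrate synthase, was at -0.14.

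**Figure D5:**
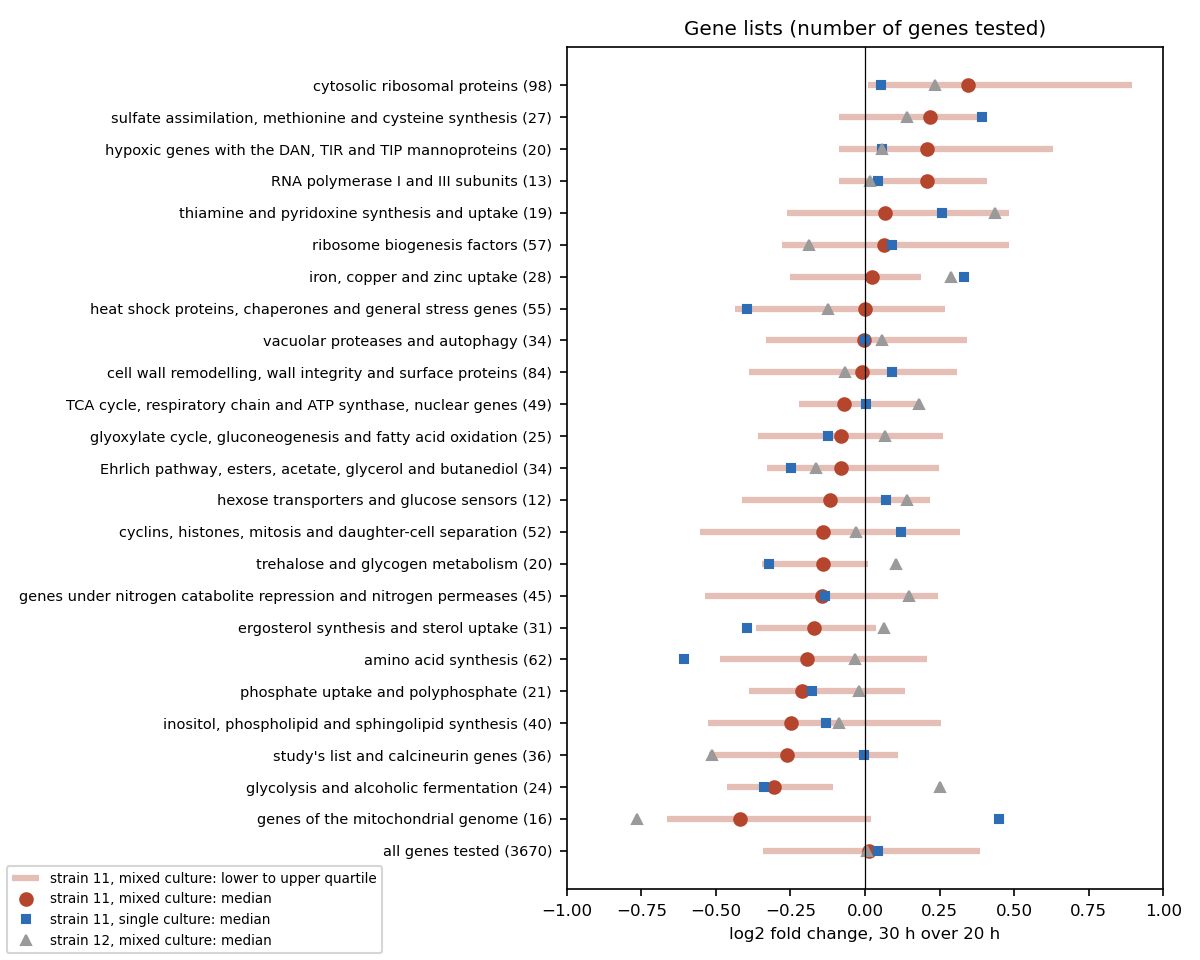
Median log2 fold change, 30 h over 20 h, of each gene list with at least 12 genes tested, for strain 11 in mixed culture (red circle, with the lower to upper quartile as a bar), strain 11 in single culture (blue square) and strain 12 in mixed culture (grey triangle). Ribosomal proteins have the highest red median (0.35) and the 16 genes of the mitochondrial genome the lowest (-0.42), and no gene of any list was called in strain 11 from mixed culture.

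The genes that the study listed as activated in strain 11 in mixed culture, joined here with calcineurin and calmodulin genes, were below 0 on balance. Calcineurin is a phosphatase switched on by calcium that acts through the transcription factor Crz1. Of 36 genes tested, 10 (27.8%) had a log2 fold change above 0, against 51.2% of all genes, the median was -0.26, and 4 genes (11.1%) had an unadjusted p under 0.05, all lower, against 6.29% of all genes. In single culture 18 of the 36 were above 0, against 52.5% of all genes there, and 2 were lower at that limit. In strain 12 from mixed culture the median was -0.51, 2 of the 36 were above 0, against 50.6% of all genes there, and 9 were lower and 1 higher at that limit, where 3.08% of all genes were lower. The study chose most of the list on libraries that include these, so the list is no independent evidence of a direction. Without replicate 1 of 30 h its median was -0.067 with 1 gene at that limit, without replicate 3 of 20 h it also had 1, and without replicate 2 of 30 h it had 6 and a median of -0.39. PMC1, the calcium pump of the vacuole, had 775, 1269.6 and 1235 CPM at 30 h, against 2314, 1439 and 1747 CPM at 20 h (log2 -0.74, SE 0.29, adjusted p = 0.707 by edgeR). PEP12, a syntaxin of the late endosome, stood at -0.70, and ADI1, of the methionine salvage pathway, at -1.08. ROG3, an arrestin-like adaptor, had 57.8, 262 and 227 CPM at 30 h, against 359, 356 and 406 CPM at 20 h. All 4 had no overlap between the times, which their choice by p largely sets. Over the 36 genes, 9 lay below without overlap and 1 above, beside 7.03% and 6.1% of all genes. CRZ1 itself had 278, 546 and 464 CPM at 30 h, against 405, 193 and 398 CPM at 20 h (log2 0.36, 95% interval -0.41 to 1.12). ALD6, the cytosolic aldehyde dehydrogenase with the most reads of the list, had a log2 fold change of -0.05. The summed CPM of the 36 genes was 18108, 34641 and 26513 at 30 h, against 33891, 25235 and 31666 at 20 h, lowest in replicate 1 of 30 h, which also had the highest sum of the strain 12 markers, and the part of these markers in the list was not tested.

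NCW2, a cell wall protein, was also lowest in replicate 1 of 30 h. It had 983, 4486 and 3378 CPM at 30 h, against 1828, 2418 and 2315 CPM at 20 h (log2 0.44, adjusted p = 0.917 by edgeR). In single culture it had 24.6, 161 and 81.6 CPM at 30 h, against 64.6, 53.8 and 33.9 CPM at 20 h, so all 6 libraries of mixed culture lay above all 6 of single culture.

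Wall and surface genes showed no common direction. Of 84 tested, 39 had a log2 fold change above 0, and the median was -0.01. An unadjusted p under 0.05 was found for 6 (7.14%, against 6.29% of all genes), or 2 without replicate 1 of 20 h. The 4 higher were MTL1 and WSC4, sensors of wall stress, SAG1, the alpha-agglutinin of mating cells, and FLO11, the flocculin of surface films, and the 2 lower were PCM1, of chitin precursor synthesis, and PLB3, a phospholipase. MTL1 had 324, 577 and 217 CPM at 30 h, against 69.4, 223 and 114 CPM at 20 h (log2 1.53), and it overlaps YGR022C. FLO11 had only 4, 7 and 10 reads at 30 h, against 0, 1 and 4 at 20 h (log2 1.87, 95% interval 0.17 to 3.58). HSP150, a secreted mannoprotein with the most reads of the list, was at -0.04 and TIP1, an anaerobic wall mannoprotein, at -0.06 with overlapping groups. Among 20 hypoxic and mannoprotein genes, 3 had an unadjusted p under 0.05. These were SED1, CWP2, a major wall mannoprotein (log2 1.06), and ROX1, the repressor of hypoxic genes, with 717, 962 and 741 CPM at 30 h, against 289, 653 and 374 CPM at 20 h (log2 0.91).

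Nitrogen use was followed in 45 genes under nitrogen catabolite repression or coding for nitrogen permeases. Of these, 4 (8.89%) had an unadjusted p under 0.05, against 6.29% of all genes. That number was 7 without replicate 1 of 30 h, 6 without replicate 2 of 20 h, and 2 without replicate 1 of 20 h, replicate 2 of 30 h or replicate 3 of 30 h. CPS1, a vacuolar carboxypeptidase, gave the tightest separation, with 532, 523 and 543 CPM at 30 h, against 868, 949 and 926 CPM at 20 h (log2 -0.78, adjusted p = 0.707 by edgeR). DAL4, the allantoin permease, stood at -1.82, DAL7, a malate synthase of the allantoin genes, at -0.89 and OPT1, an oligopeptide transporter, at 0.69. OPT2, another of that family, had 1098, 554 and 869 CPM at 30 h, against 312, 742 and 707 CPM at 20 h (log2 0.51) and BSC1 at most 5 reads in any of the 6 libraries. Amino acid synthesis had 3 of 62 genes (4.84%, against 6.29% of all genes) at an unadjusted p under 0.05, and 5 without replicate 2 of either time. The 3 were ARG1 (log2 -1.05) and ARG4 (-1.08) of arginine synthesis and AAT1 (-1.55), an aspartate aminotransferase, all lower. In single culture this list had 20 lower genes at that limit, where 6.54% of all genes tested were lower, and a median of -0.61, beside -0.20 in mixed culture. GCN4, the activator of these genes, was at log2 0.22.

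Phosphate genes had 5 of 21 (23.8%) at an unadjusted p under 0.05 in opposite directions, against 6.29% of all genes. PHO4 and PHO2, the activators of the pathway, stood at -1.46 and 1.46, with 5, 7 and 2 reads of PHO4 at 30 h, against 8, 12 and 13 at 20 h, and 8, 16 and 17 reads of PHO2 at 30 h, against 4, 2 and 7 at 20 h. PHO8, the vacuolar phosphatase, was at -0.77, PHO13 at -1.28 and PHO86, which brings a phosphate transporter to the membrane, at 1.26. The list had 1 such gene without replicate 3 of 30 h, 2 without replicate 1 of 20 h, 3 without replicate 2 of 20 h and 1 without both marker-rich libraries. PHM7, with the most reads of the list, had 2417, 2308 and 2242 CPM at 30 h, against 4420.0, 2952 and 2900.2 CPM at 20 h (log2 -0.56).

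The list of inositol, phospholipid and sphingolipid synthesis had 3 of 40 genes (7.5%) at an unadjusted p under 0.05, against 6.29% of all genes. That number was 0 without replicate 1 of 20 h and 4 without replicate 1 of 30 h. Of the lipid genes, FAS2, the partner of FAS1, had 1908, 1700.5 and 1541 CPM at 30 h, against 4293, 2329 and 2526 CPM at 20 h (log2 -0.83, adjusted p = 0.707 by edgeR). SCS7, a sphingolipid hydroxylase that overlaps YMR272W-A, was at -0.79. ELO1, a fatty acid elongase, had 2, 0 and 2 reads at 30 h, against 7, 2 and 6 at 20 h. INO1, the rate-limiting enzyme of inositol synthesis, had 416, 1039 and 761 CPM at 30 h, against 1134, 653 and 829 CPM at 20 h (log2 -0.23). ERG11, of ergosterol synthesis, was at -0.26, and 2 of 31 sterol genes (6.45%) had an unadjusted p under 0.05, against 6.29% of all genes. Among 52 genes of the cell cycle, 4 (7.69%) had an unadjusted p under 0.05, against 6.29% of all genes. That number was 0 without replicate 2 of 30 h and 5 without replicate 1 of 20 h. CLN3, the G1 cyclin that responds to nutrients, was at 0.80. RNR1, of deoxynucleotide synthesis, and the histones HTA1 and HTZ1 were at -0.91, -0.83 and -1.23. CTS1, the chitinase that parts mother and daughter, was at 0.09.

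Lists with little sign of a difference included vacuolar proteases and autophagy, where PRB1, the main vacuolar protease, was at -0.47 and APE1, an aminopeptidase, at -0.82, and aroma and redox genes with 1 of 34 at an unadjusted p under 0.05. MET6 of methionine synthesis was at 0.29, THI4 of thiamine synthesis at 0.35, and FRE5 of metal uptake at -0.04. In the 16 genes of the mitochondrial genome, of which AI2 took the most reads with 844, 485 and 1551 CPM at 30 h, against 1932, 1573 and 1251 CPM at 20 h, 0 had an unadjusted p under 0.05. With single libraries left out, the numbers at that limit ran from 1 to 5 for ribosome biogenesis, 0 to 1 for polymerase subunits, 0 to 2 for hexose transporters, 1 to 3 for trehalose and glycogen, 0 to 2 for respiration, 1 to 3 for sterols, 0 to 3 for aroma and redox genes, 0 to 4 for vacuolar proteases and autophagy and 0 to 1 for the mitochondrial genome. In sorted bulk samples like these, fewer transcripts per cell and fewer cells of one kind cannot be told apart.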

How the data were processed

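Read counts per gene and per exon were deposited for every library, as was the RPKM of genes, which the authors scaled by gene length and by the reads counted on exons. Reads were aligned to sacCer2; the submitters' processing notes name Cufflinks 1.3.0 and Cuffdiff, the exon table names LifeScope, and the use of strand is not given in the sources used here. Coordinates are those of the deposited tables; of 6717 identifiers, 6025 matched the R64 annotation, used for names and descriptions only.

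The counts of all 36 libraries were fitted in edgeR 4.0.16 (R 4.3.3, limma 3.58.1) with 1 coefficient for each of 12 groups, filterByExpr (3670 genes), TMM factors and the two-sided quasi-likelihood test (common dispersion 0.0833), with a call where the p adjusted by Benjamini and Hochberg was 0.05 or less. CPM use TMM library sizes. The test was checked on simulated counts. With 3 libraries against 3, the smallest p of an exact permutation test is 0.1, and it was not applied. The study reports fermentations in triplicate, but the labels do not say whether replicates came from separate flasks. The p-values therefore measure the spread between these libraries. Intervals of ratios of reads cover counting error only. Pairs of libraries of 1 time differed by more than sampling noise, so none was treated as a copy of another. That check cannot show whether they came from separate flasks.

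Alternatives were DESeq2 1.42.0, RLE factors, no filter, a mean of at least 10 reads, the 6 libraries only, a replicate block, limma on log2(RPKM + 1) and log2(RPKM + 0.1), a log2 limit of 1, exon counts, retrotransposon or mitochondrial genes left out, each library left out and, chosen after seeing the data, both marker-rich libraries left out. The members, markers and gene lists were chosen with earlier results of these data known. By rule the text names called genes (up to 12 per direction; there were none), the member with the most reads in each list, and SSU1, YHB1, OPT2, BSC1, SED1, TIP1, CRZ1, NCW2 and INO1. All other genes were named after their values were seen, mainly list members at an unadjusted p under 0.05 and genes with many reads.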

Additional observations from a re-analysis of the deposited data

How the results depend on the processing

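The count of called genes between 30 and 20 h in strain 11 from mixed culture was 0 by edgeR. The count remained 0 under DESeq2, RLE factors, exon counts, a mean of at least 10 reads, and limma with a pseudocount of 0.1. It also remained 0 with retrotransposon or mitochondrial genes left out, and with both marker-rich libraries left out. A log2 limit of 1 can only remove calls, so its count of 0 was set beforehand. Leaving out single libraries gave 0 to 0 genes. It was 3 with no filter (RPS11B, SIP18 and CHP1, all higher; CHP1 had 3, 23 and 5 reads at 30 h, against 0, 0 and 0 at 20 h, at least 9.15-fold higher against a floor of 3 reads over the group), 1 with the 6 libraries compared only (SED1), and 1 with limma on log2(RPKM + 1) (TEF1, lower). Deviations from the group means correlated by -0.03, -0.03 and 0.03 for equal replicate numbers. Such values from few shallow libraries cannot show whether equal numbers came from the same flask. With the replicate block the count was 0 in the fit of 36 libraries (200 genes at an unadjusted p under 0.05, against 231 without it), and with the block in the fit of 6 libraries it was 1 (SED1, log2 1.16, adjusted p = 0.00282). The difference between the strains' time changes gave 1 gene with no filter. In single culture the 26 called genes became 56 and 62 with limma and pseudocounts of 1 and 0.1. In strain 12 the 1 called gene became 12 of 1189 with DESeq2 and 4 of 6400 with no filter. With single libraries left out, the log2 fold change of SSU1 (0.56) ran from -0.088 (without replicate 1 of 30 h) to 1.03. Of 2137 values for 117 genes under the alternatives, 5 newly passed the threshold and 1 reversed, the value of SSU1 just given. The other 2131 stayed on their side of the threshold, and among them only genes within 1 SE of 0 changed sign. Depth limits every statement of no call.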
